A study of Mus musculus with 6 samples.

Results

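The 6 genes followed here encode glycoproteins of the gels overlying the hair cells of the inner ear, and were measured in newborn mice. They were taken by name as Tecta (α-tectorin), Tectb (β-tectorin), Otog (otogelin), Otogl (otogelin-like), Otoa (otoancorin) and Ceacam16, and all 6 were found once among the 39179 genes of the count files. The mRNA came from sensory epithelia of wild-type C57Bl/6J mice at postnatal day 0, of both sexes pooled and with no treatment named, with 3 libraries of the cochlea, the hearing organ, and 3 of the vestibule, the balance organ. By the study's methods both tissues were taken from the same 20 ears of 10 mice, so the 2 groups share animals, with no label that ties a cochlear to a vestibular library, and 450 ng of total RNA went into each library of a stranded mRNA kit. The study's methods give the RNA yield of each tissue as a total and name sequencing in triplicate. Neither this nor the labels tell whether the 3 libraries of a tissue came from separate RNA pools. The p-values thus measure only the spread between these libraries, which may be technical. Because each library is bulk tissue, fewer cells of a type and less RNA per cell cannot be told apart.

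Hair cells are stimulated through extracellular gels. In the cochlea this is the tectorial membrane, a ribbon of collagen fibres in a sheet of tectorins. In the vestibule it is the otoconial membrane of the utricle and saccule and the cupula of the semicircular canals. The tectorins are secreted by supporting cells and other non-sensory cells and polymerise through a zona pellucida domain. The otogelins are very large secreted proteins with the von Willebrand D domains also found in mucins. Otoancorin is a surface protein of the mesothelin and stereocilin family that attaches the gels to non-sensory cells. Ceacam16 is a secreted member of the carcinoembryonic antigen family that works with α-tectorin in the tectorial membrane.

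RefSeq promoter windows, from 250 bases before to 50 bases after a transcript start, were given for 4 of the 6 genes. For Tecta there were 2 windows, and for Otogl and Ceacam16 none were used. The windows of Tecta, Tectb and Otog are shown here because the tectorins were higher in the cochlea and Otog in the vestibule. The build is GRCm38.p6, each sequence reads 5′ to 3′ on the strand of the gene, and capitals mark the motifs found. The windows are chr9:42399898-42400197 on the minus strand for Tecta, chr19:55180476-55180775 on the plus strand for Tectb and chr7:46240737-46241036 on the plus strand for Otog.
Tecta: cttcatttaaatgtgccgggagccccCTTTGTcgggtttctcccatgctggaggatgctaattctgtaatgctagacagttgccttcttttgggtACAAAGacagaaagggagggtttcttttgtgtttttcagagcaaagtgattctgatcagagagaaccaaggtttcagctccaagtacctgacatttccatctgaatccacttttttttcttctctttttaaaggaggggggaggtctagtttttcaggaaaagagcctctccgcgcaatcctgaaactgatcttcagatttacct
Tectb: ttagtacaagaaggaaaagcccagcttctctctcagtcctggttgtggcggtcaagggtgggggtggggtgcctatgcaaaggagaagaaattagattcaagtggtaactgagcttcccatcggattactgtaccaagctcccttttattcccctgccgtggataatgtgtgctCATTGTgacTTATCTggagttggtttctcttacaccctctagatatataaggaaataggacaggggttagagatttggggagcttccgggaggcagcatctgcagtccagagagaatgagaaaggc
Otog: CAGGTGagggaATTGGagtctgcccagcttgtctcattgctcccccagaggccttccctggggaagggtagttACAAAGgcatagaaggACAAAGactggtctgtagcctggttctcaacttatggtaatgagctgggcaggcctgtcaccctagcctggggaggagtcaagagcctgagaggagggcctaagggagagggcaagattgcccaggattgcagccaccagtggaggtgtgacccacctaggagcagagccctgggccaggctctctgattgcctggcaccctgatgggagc

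In all, 7 short motifs were searched on both strands: the TATA box TATAAA, the CCAAT box CCAAT, the GC box GGGCGG, the SOX-type cores ACAATG and ACAAAG, the GATA-type core AGATAA and the E-box CAGGTG. The Tecta window held ACAAAG on its own strand 155 bases before the start and on the opposite strand 224 bases before it. Otog also held ACAAAG, on its own strand 177 and 161 bases before the start, together with CAGGTG at the first base of the window and CCAAT on the opposite strand. The Tectb window had none of these, and held ACAATG and AGATAA, both on the opposite strand, 76 and 67 bases before the start. Of 32851 mouse promoter windows of the same length, 18.7% held ACAAAG, 12.6% ACAATG, 11.2% AGATAA, 20.2% CAGGTG and 37.4% CCAAT. None of the 3 windows shown held TATAAA or GGGCGG, which were in 13.6% and 35.7% of all windows. The second Tecta window held no match, and that of Otoa held only CCAAT. The GC content was 43.7% in the Tecta window shown, 48.3% for Tectb, 58.7% for Otog and 58.0% for Otoa, beside a median of 52.7% over all windows.

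The libraries held 24464483 to 33664793 counts on genes, given here as CPM (a gene's counts scaled to a library total of 1000000). Those 14723 genes that reached 1 CPM in at least 3 of the 6 libraries entered edgeR's quasi-likelihood test. Fold changes are log2, vestibule minus cochlea, and are thus below 0 for genes with more mRNA in the cochlea; they were fitted after TMM scaling, so they can differ slightly from the ratio of the mean CPM. At an FDR of 0.05 the test called 27.4% of all genes tested, 11.6% higher in the cochlea and 15.8% higher in the vestibule. Of 7 cochlear marker genes 6 were higher in the cochlea, and of 5 vestibular ones 3 were higher in the vestibule and 1, Cyp26b1, in the cochlea. Slc26a5 passed the filter only through the cochlea and Otop1 only through the vestibule, so these had to differ, and Nox3 reached 1 CPM in only 1 cochlear library. Oc90, at 1255 to 1723 CPM in the cochlea and 8140 to 9418 CPM in the vestibule, was above the filter in both. Cochlea replicate 3 stood apart in 7 skeletal muscle genes, whose CPM summed to 283 there and to between 4.09 and 26.6 in the other libraries. It was also the lowest cochlear library in neuron genes (151 CPM, beside 493 and 434) and melanocyte genes (30.1 CPM, beside 57.7 and 59.5).

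Of the 6 genes 5 passed the filter, each above 1 CPM in all 6 libraries, and Ceacam16 did not. Of the 5, Tecta, Tectb and Otogl were higher in the cochlea (3 genes, beside 11.6% of all genes), Otog was higher in the vestibule (1 gene, beside 15.8%) and Otoa was not called. The 3 cochlear and the 3 vestibular libraries did not overlap in 4 of the 5 genes, which was so in 41.8% of all genes tested.

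**Figure D1:**
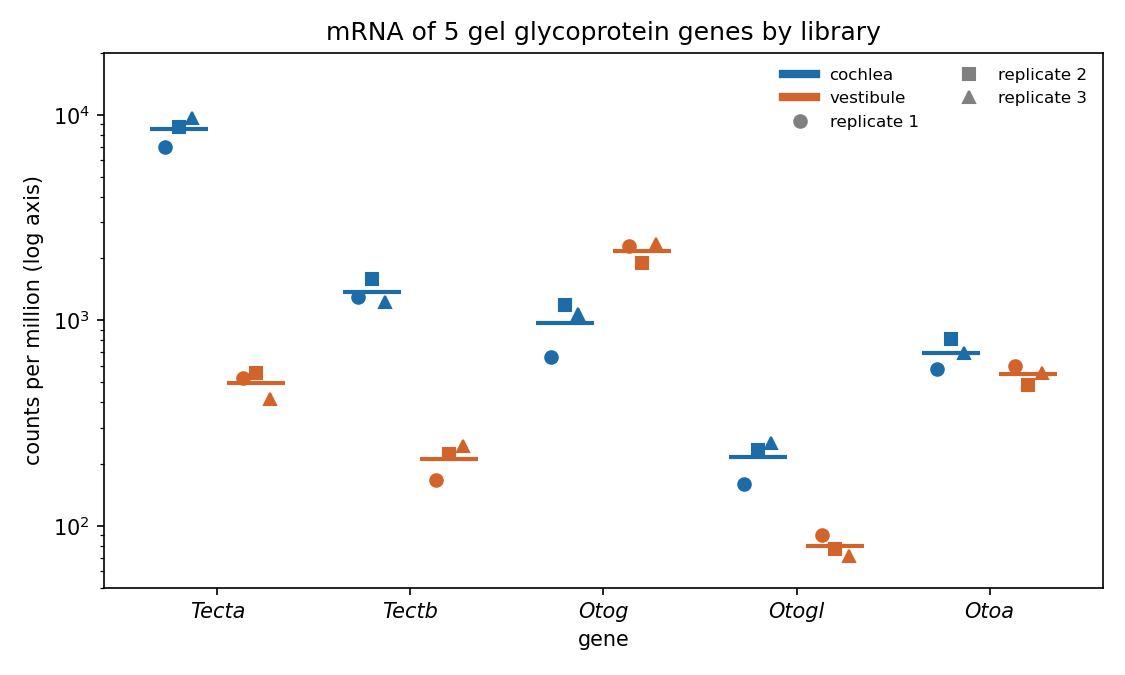
CPM on a log axis of the 5 tested genes in each library, with circles, squares and triangles for replicates 1 to 3 and a line at the mean of each tissue. Tecta spans from 412 to 9689 CPM between the tissues, Otog is the only gene of the 5 with all vestibular libraries above all cochlear ones, and the tissues overlap for Otoa.

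Of the 5, the tectorins differed most between the tissues. Tecta (ENSMUSG00000037705, chr9:42329619-42399929, minus strand, 24 merged exons) had 7010, 8766 and 9689 CPM in the cochlear libraries and 522, 556 and 412 CPM in the vestibular ones, from counts of 171494 to 283176 and of 10494 to 17580. All 3 cochlear libraries lay far above the vestibular ones, with replicate 1 the lowest cochlear library. The means were 8490 ± 1360 and 497 ± 75.1 CPM (SD, n = 3 each), and the log2 fold change of -4.22 (SE 0.24, 95% interval -4.77 to -3.67, edgeR adjusted p = 8.1e-06) is a level 18.6-fold higher in the cochlea. An antisense gene, Gm47629, lies within Tecta in the annotation used here and was not analysed here. Since the strand setting of the counting is not given in the sources used here, reads of both strands cannot be told apart.

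Tectb (ENSMUSG00000024979, chr19:55180733-55196313, plus strand, 12 merged exons) had 1304, 1594 and 1223 CPM in the cochlea and 168, 224 and 245 CPM in the vestibule. The tissues were again well apart, but the libraries were not in the order seen for Tecta: cochlea replicate 3 was the highest for Tecta and the lowest for Tectb, and vestibule replicate 3 the lowest for Tecta and the highest for Tectb. Means of 1370 ± 195 and 212 ± 39.8 CPM (SD, n = 3 each) gave a log2 fold change of -2.81 (SE 0.23, 95% interval -3.33 to -2.3, edgeR adjusted p = 4.6e-05), a level 7.02-fold higher in the cochlea. The microRNA gene Mir6715, annotated within Tectb, had a count of 0 in every library.

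The 2 otogelins went in opposite directions. Otog (ENSMUSG00000009487, chr7:46240987-46311434, plus strand, 57 merged exons) had 663, 1184 and 1072 CPM in the cochlea and 2290, 1895 and 2345 CPM in the vestibule. Every vestibular library was above every cochlear one, and cochlea replicate 1 was well below the other two. The means were 973 ± 274 and 2180 ± 245 CPM (SD, n = 3 each), with a log2 fold change of 1.04 (SE 0.25, 95% interval 0.47 to 1.6, edgeR adjusted p = 0.0144), a level 2.05-fold higher in the vestibule. Without cochlea replicate 1 the log2 fold change was 0.81 and the gene was still called, whereas the call did not hold at an FDR of 0.01.

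Otogl (ENSMUSG00000091455, chr10:107760531-107912134, minus strand, 58 merged exons) had 159, 233 and 254 CPM in the cochlear libraries and 90.5, 77.2 and 71.6 CPM in the vestibular ones. All cochlear libraries were higher, and again cochlea replicate 1 was the lowest of the 3. Its means of 215 ± 49.7 and 79.7 ± 9.7 CPM (SD, n = 3 each) gave a log2 fold change of -1.56 (SE 0.19, 95% interval -1.99 to -1.13, edgeR adjusted p = 4.2e-04), a level 2.95-fold higher in the cochlea.

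Otoa (ENSMUSG00000034990, chr7:121081650-121163097, plus strand, 32 merged exons) had 580, 813 and 697 CPM in the cochlea and 598, 487 and 556 CPM in the vestibule. The tissues overlapped, since cochlea replicate 1 was below vestibule replicate 1. The means of 696 ± 117 and 547 ± 56.3 CPM (SD, n = 3 each) differed by a log2 fold change of -0.47 (SE 0.18, 95% interval -0.88 to -0.07), with an adjusted p of 0.0839 in edgeR's quasi-likelihood test. The study's looser threshold, a 1.3-fold change at an FDR of 0.1, was passed by Otoa, which was also called by DESeq2 (adjusted p = 0.0316) and by edgeR's likelihood ratio test (adjusted p = 0.049), within a range of adjusted p from 0.0316 to 0.328 over 16 alternatives.

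Ceacam16 (ENSMUSG00000014686, chr7:19852097-19861299, minus strand, 6 merged exons) had counts of 3, 4 and 0 in the cochlear libraries and of 2, 1 and 0 in the vestibular ones. A floor of 3 counts is 0.0891 to 0.123 CPM at these depths (counting error only), so the gene was at or near the floor in every library and no difference between the tissues was detectable. A gene on the opposite strand that overlaps it, Gm19345, had counts of 3, 4 and 0 in the cochlea and of 0 in each vestibular library, and how overlapping reads were assigned is not given in the sources used here.

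Cochlea replicate 1 was the lowest cochlear library in Tecta, Otog, Otogl and Otoa. Red blood cell genes summed to 736 CPM in that library, to 292 to 340 CPM in the other cochlear libraries and to 476 to 637 CPM in the vestibular ones. None of these 5 genes was called, and their part in the lower values was not tested. With that library left out, the log2 fold changes of all 5 genes kept their direction and the calls stayed at 3 and 1. Without cochlea replicate 3, where the muscle genes were high and the neuron and melanocyte genes low, they stayed at 3 and 1 as well.

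Levels of different genes were compared per kilobase, on the RPKM scale of the deposited matrix (reads per kilobase of gene, scaled to library size). In the cochlea the order was Tecta with 1150 ± 184, Tectb with 360 ± 51.1, Otoa with 163 ± 27.3, Otog with 97.0 ± 27.4 and Otogl with 30.5 ± 7.04 RPKM (SD, n = 3), and no neighbours in this order overlapped. In the vestibule it was Otog with 217 ± 24.5, Otoa with 128 ± 13.2, Tecta with 67.1 ± 10.2, Tectb with 55.6 ± 10.4 and Otogl with 11.3 ± 1.38 RPKM (SD, n = 3). There only Tecta and Tectb overlapped, with Tecta the higher of the pair in 2 of 3 libraries. Thus Tecta led in the cochlea and Otog in the vestibule, and Otogl had the lowest level of the 5 in both.

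Among the 14722 genes of the matrix, Tecta ranked between 28 and 50 by RPKM in the cochlear libraries and between 613 and 953 in the vestibular ones. Tectb ranked from 124 to 137 in cochlear libraries and from 816 to 1164 in vestibular ones. Otog moved the other way, from ranks 366 to 743 in the cochlea to 158 to 205 in the vestibule. Otogl ranked from 1447 to 2592 in cochlear libraries and from 4945 to 5435 in vestibular ones, and Otoa between 233 and 321 and between 263 and 369. These ranks rest on the gene lengths of the deposited matrix and were not recomputed with merged exons.

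The make-up of the 5 mRNAs therefore differed by tissue. Tecta was 60.9% to 67.6% of their summed RPKM in the cochlear libraries and 11.3% to 16.8% in the vestibular ones. Otog was 4.37% to 6.07% in the cochlea and 42.2% to 47.4% in the vestibule. Tectb had 16.6% to 22.6% and 8.87% to 13.1%, and Otoa 8.41% to 9.78% and 25.4% to 28.2%. Otogl had 1.49% to 1.86% and 2.05% to 2.59%, a higher share in the vestibule although its RPKM was lower there. The ranges did not overlap between the tissues for any of the 5, and since the shares of a library add up to the whole, they are not independent of each other. The sum itself was 1510, 1940 and 1940 RPKM in the cochlear libraries and 496, 448 and 494 RPKM in the vestibular ones.

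**Figure D2:**
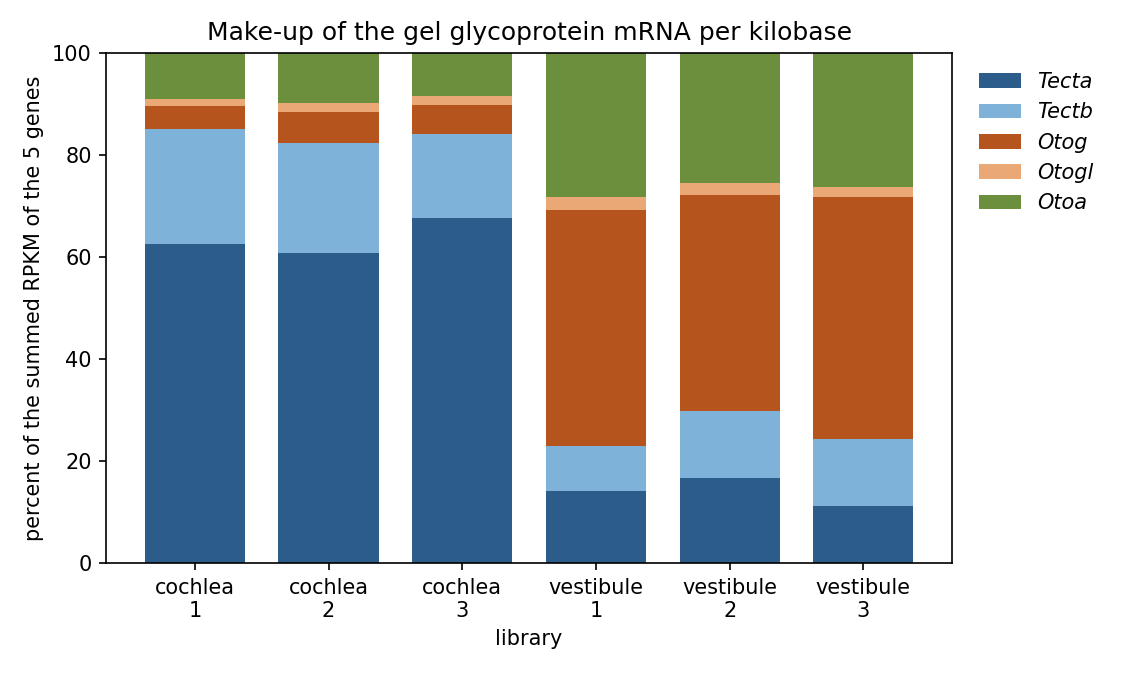
Share of each gene, in percent, in the summed RPKM of the 5 tested genes, with 1 stacked bar per library. Tecta takes 60.9% to 67.6% of the 3 cochlear bars, and Otog 42.2% to 47.4% of the 3 vestibular bars.

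The place of Otoa depended on the gene length. The deposited RPKM correspond to a length of 4276 bases for Otoa, whereas its merged exons in the GENCODE annotation used here cover 8439 bases, over 7 transcripts. With merged exons its mean was 82.5 RPKM in the cochlea and 64.8 RPKM in the vestibule, so that its mean was below that of Otog (94.0 RPKM) in the cochlea and below that of Tecta (67.0 RPKM) in the vestibule. The libraries did not keep these orders: Otoa was above Otog in cochlea replicate 1 (4.77% and 4.45% of the 5 genes' sum) and above Tecta in 2 of 3 vestibular libraries (17.0% and 16.9% in replicate 1, 15.7% and 13.2% in replicate 3). Otogl (7058 and 8763 bases) went to 24.6 and 9.1 RPKM and stayed last. The share of Otoa fell to 4.48% to 5.25% in the cochlear libraries and 15.0% to 17.0% in the vestibular ones. The shares of Tecta were then 64.4% to 71.0% and 13.2% to 19.6%, and those of Otog 4.45% to 6.23% and 47.8% to 53.9%.

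Ratios within a library do not depend on the scaling between libraries. Tecta to Tectb, the pair of tectorins, was 2.77, 2.84 and 4.09 per kilobase in the cochlea, against 1.6, 1.28 and 0.869 in the vestibule. Otog to Otogl, the pair of otogelins, was 2.93, 3.58 and 2.98 in the cochlea, against 17.8, 17.3 and 23.1 in the vestibule. Tecta to Otog was 14.3, 10.0 and 12.2 in the cochlea, against 0.309, 0.397 and 0.238 in the vestibule. None of the 3 ratios overlapped between the tissues. The mean log2 ratio, vestibule minus cochlea, differed by -1.39 for Tecta to Tectb (2.62-fold), by 2.61 for Otog to Otogl (6.11-fold) and by -5.29 for Tecta to Otog (39.2-fold). The two-sided exact permutation test gave p = 0.1 for each (adjusted p = 0.1 over the 3 ratios), the smallest that 3 against 3 libraries allow, so it could not reach 0.05.

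**Figure D3:**
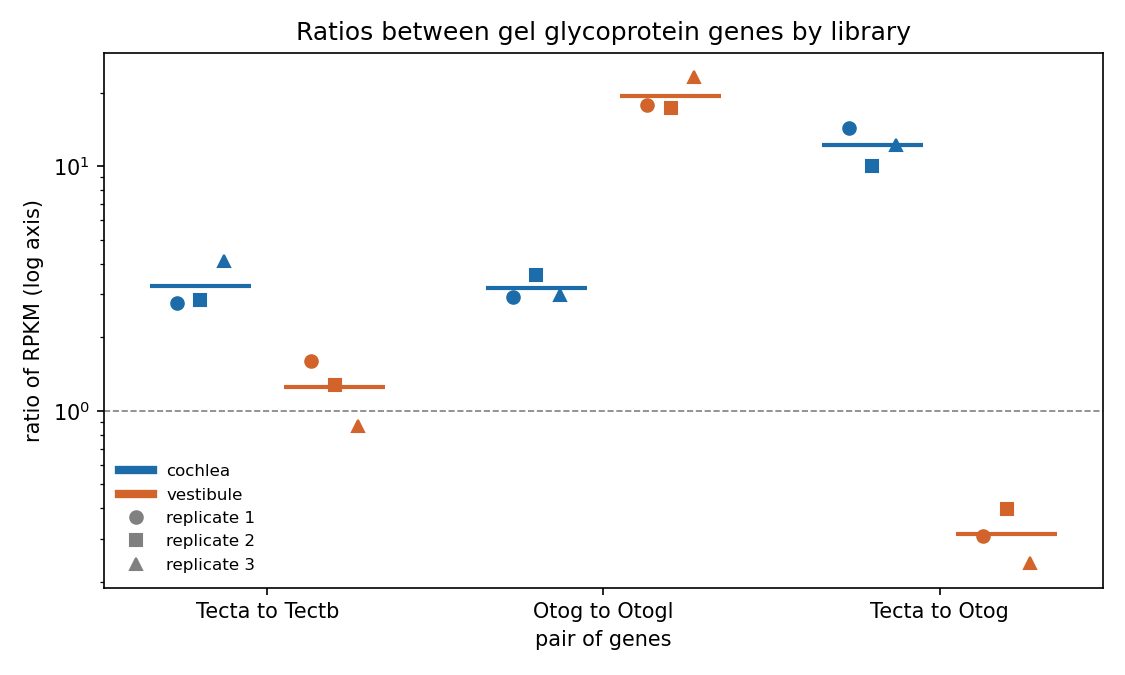
Ratio of RPKM on a log axis for 3 pairs of genes in each library, with circles, squares and triangles for replicates 1 to 3, a line at the mean and a dashed line at equal levels. Tecta exceeds Otog at least 10.0 times in each cochlear library and stays under it in each vestibular one, and Tecta falls below Tectb only in vestibule replicate 3 (0.869).

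Related genes, in 7 lists, give the setting of these values, and the median log2 fold change of a list, where no gene of it passed the filter through 1 tissue alone, is set beside that of 0.0048 over all genes tested. Of 7 other genes of the apical matrix, 2 were higher in the cochlea, 3 in the vestibule and 2 were not called. Pkhd1l1, a large protein of the hair bundle surface, had 15.5, 21.9 and 17.8 CPM in the cochlea and 0.832, 0.934 and 0.314 CPM in the vestibule (log2 fold change -4.85, SE 0.34), and passed the filter only through the cochlea, so it had to differ. Emilin2, a glycoprotein of the EMILIN family, followed with -1.01 (SE 0.21). Zpld1, whose product is a zona pellucida domain protein of the cupula, had 15.2, 12.6 and 45.0 CPM in the cochlea and 1116, 1063 and 1810 CPM in the vestibule (log2 fold change 5.68, SE 0.55). The otoconial matrix genes Oc90 and Otol1 were higher in the vestibule too, by 2.54 (SE 0.24) and 2.9 (SE 0.23). Strc (0.21, SE 0.22), the stereocilin of hair bundle links, and Sparcl1 (0.04, SE 0.19) were not called.

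None of the 6 collagen genes of the tectorial membrane was called (median -0.03), while the tectorins that build the sheet around these fibres differed by 7.02-fold and more. Their log2 fold changes ran from -0.62 (SE 0.23) for Col11a1 to 0.45 (SE 0.17) for Col9a1, and both of these passed under DESeq2 and the likelihood ratio test, in opposite directions. Col9a1 was also called with library sizes alone (0.57, edgeR adjusted p = 0.0231) and Col11a1 with no filter on low counts (-0.64, edgeR adjusted p = 0.0319) and without cochlea replicate 1 (-0.83). These collagens are also cartilage collagens. Of 5 other cartilage genes, 1 (Matn1) was higher in the cochlea and 3 (Acan, Comp and Col10a1) in the vestibule. The 5 genes summed to 810 to 928 CPM in the cochlea and 601 to 736 CPM in the vestibule. Most of this was Cnmd (659 to 793 and 555 to 672 CPM), which was not called. The part of these 5 genes in the collagen values was not tested. Of 5 proteases that process secreted and surface proteins, only Pcsk6 was called, with 229, 318 and 265 CPM in the cochlea and 76.0, 79.0 and 76.1 CPM in the vestibule (log2 fold change -1.94, SE 0.16; list median 0.03).

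In the families of the 6 genes, calls went in both directions for other zona pellucida domain and mesothelin genes. For other von Willebrand D domain and Ceacam genes all calls were higher in the vestibule. Of 12 other zona pellucida domain genes 4 were tested, and Umodl1 was higher in the cochlea (-4.43, SE 0.29), from 8.63 to 13.6 CPM there and 0.535 to 0.667 CPM in the vestibule, while Zpld1 and the growth factor co-receptors Tgfbr3 (1.1, SE 0.17) and Eng (0.5, SE 0.14) were higher in the vestibule. Umodl1 passed the filter only through the cochlea and so had to differ, and no median is given for these 4 genes. Eng lost its call under the replicate block and in 4 of 6 fits without a library (cochlea replicates 1 and 2, vestibule replicates 2 and 3). Of 10 other von Willebrand D domain genes 6 were tested, with 2 higher in the vestibule, Vwf (1.8, SE 0.19) of blood vessel lining and Kcp (1.71, SE 0.2), and 4 not called (median 1.02). Endothelial genes summed to 84.6, 55.1 and 73.8 CPM in the cochlea and 457, 322 and 341 CPM in the vestibule, with 3 of 4 higher in the vestibule, and their part in the values of Eng and Vwf was not tested. Beside Otoa, the mesothelin family had Mslnl higher in the cochlea (-0.93, SE 0.24), Msln higher in the vestibule (5, SE 0.4) and Strc not called. Mslnl lost its call without cochlea replicate 2 (-0.89) and without vestibule replicate 1 (-0.77) or 2 (-0.87). Msln had 0.174 to 0.753 CPM in the cochlea, so it passed the filter only through the vestibule. Of 15 other Ceacam genes 14 were matched, 7 of them with a count of 0 in all libraries, and only Ceacam1 was tested, with 1.14 to 1.81 CPM in the cochlea and 5.18 to 8.35 CPM in the vestibule (log2 fold change 2.1, SE 0.27).

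**Figure D4:**
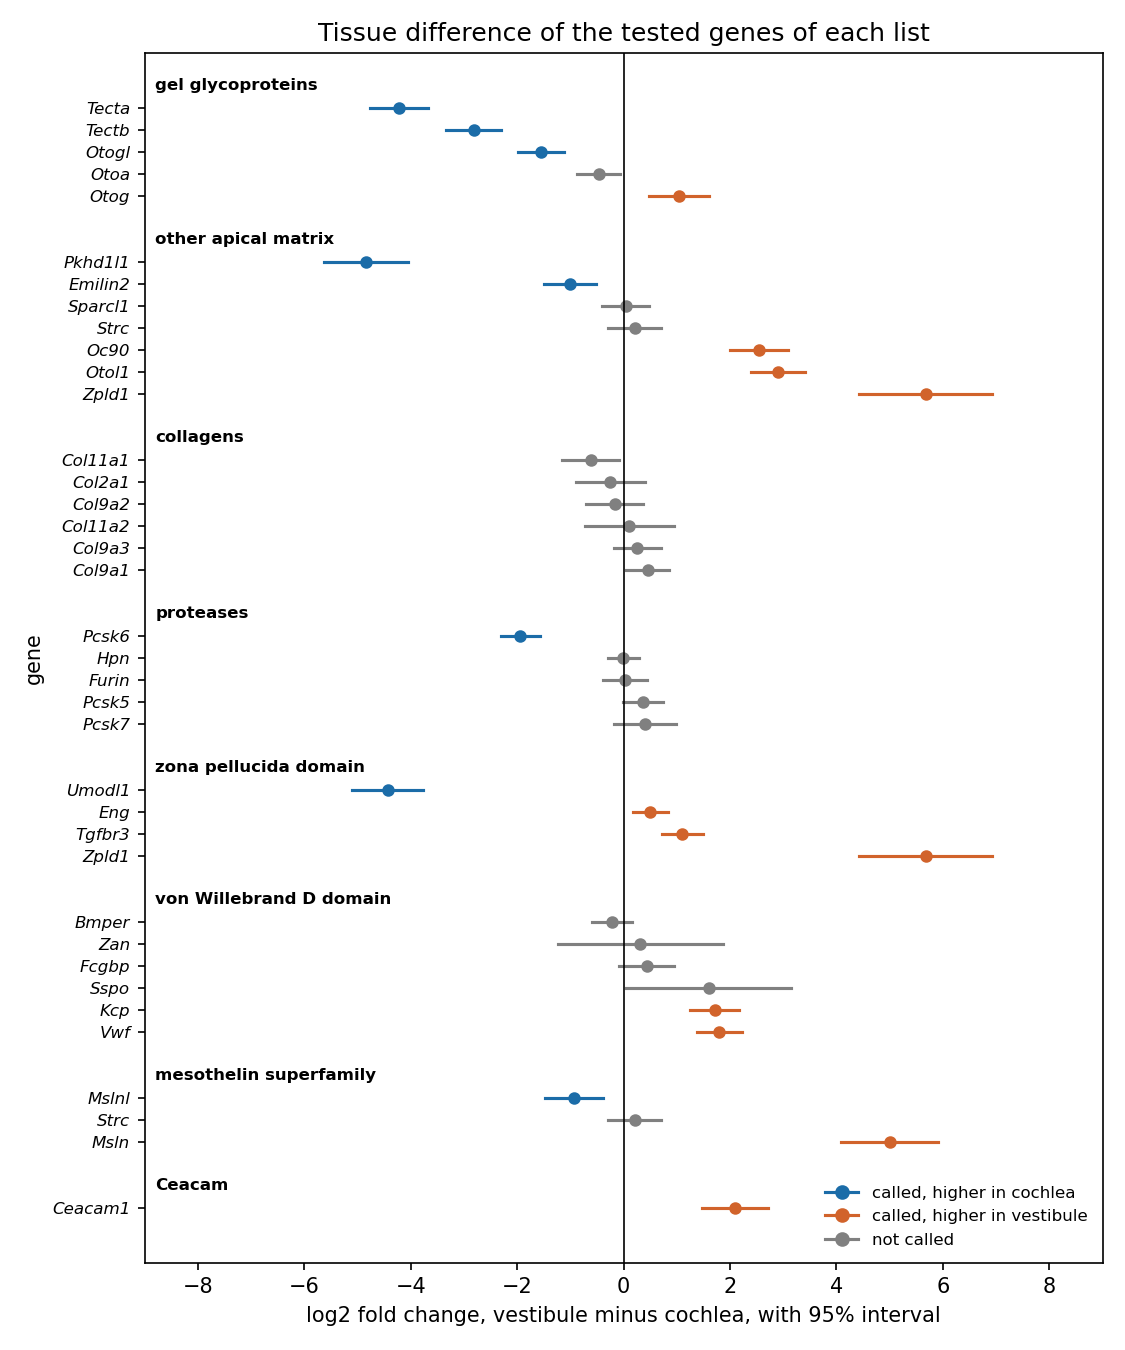
Log2 fold change, vestibule minus cochlea, of every tested gene of the 6 glycoprotein genes and of 7 related lists, with its 95% interval; blue genes were called higher in the cochlea, orange ones higher in the vestibule and grey ones not called. Tecta (-4.22) and Tectb (-2.81) sit on the cochlear side, Otog (1.04) sits on the vestibular side, and the collagens lie around 0.

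Markers of the cells that could carry these mRNAs also differed. Supporting cell genes, known from the cells that secrete tectorins, summed to 635, 753 and 776 CPM in the cochlea and 432, 419 and 404 CPM in the vestibule, with 4 of 6 higher in the cochlea and none higher in the vestibule. The hair cell genes summed to 570, 696 and 800 CPM in the cochlea and 1328, 1090 and 1022 CPM in the vestibule, with 4 of 8 higher in the vestibule. Mesenchyme genes summed to 2594 to 3201 CPM and to 7233 to 8199 CPM, with 2 of 6 higher in the cochlea and 4 in the vestibule. Calls were also made among genes of further cell types. Higher in the vestibule were 5 of 5 macrophage genes (60.8 to 76.9 CPM summed in cochlear libraries, 241 to 246 in vestibular ones). So were 4 of 4 melanocyte genes (30.1 to 59.5 and 238 to 281) and 3 of 4 dark cell and stria genes (483 to 621 and 639 to 785). Of 5 Schwann cell genes (442 to 563 and 907 to 1178) 2 were higher in the vestibule and 3 were not called. Of 5 neuron genes 2 were higher in the cochlea and 3 were not called, and their sums overlapped between the tissues (151 to 493 and 101 to 309). Among the markers, Otos (mesenchyme) passed the filter only through the cochlea and Comp (cartilage) and Mlana (melanocytes) only through the vestibule. No gene of these lists was at 0 in all libraries, and their part in the differences of the gel genes was not tested.

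The genes whose profile over the 6 libraries was closest to each gel gene were named by the Euclidean distance of the centred log2 CPM, over 12057 genes with a mean of at least 5 CPM. Closest to Tecta were Gata3, a zinc finger transcription factor (distance 0.371), Atp6v1b1, a proton pump subunit (0.449), and Fgfr3, a fibroblast growth factor receptor (0.471). For Tectb these were Prkcq (0.367), R3hdml (0.387) and Spock1 (0.422). For Otog they were Amotl2 (0.304), Apba1 (0.353) and ENSMUSG00000047490, a gene with no symbol in the tables used (0.375). For Otogl they were Ace (0.2), Cemip2 (0.221) and Rgma (0.265), and for Otoa Hyou1 (0.126), Avl9 (0.142) and Uggt1 (0.162). No gene was among the 3 of more than 1 gel gene. Ranked by Pearson's correlation instead, 1 of the 3 stayed for Tecta, Otogl and Otoa and none for Tectb and Otog. The 6 points share the contrast between the tissues, so these distances describe the libraries only.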

How the data were processed

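RNA-seq of newborn cochlear and vestibular sensory epithelia was analysed, with 3 libraries per tissue grouped by their titles. Per the submitters' processing notes and the study's methods, the authors aligned paired reads with TopHat2 2.1.0 to GRCm38 and used SAMtools 0.1.18, HTSeq 0.5.4p5 and edgeR 3.4.2. They deposited whole-number counts per Ensembl gene, not normalized, and a matrix of log2 RPKM. Checked against the counts over 11426 genes, the matrix is scaled by library size with a fixed gene length (spread at most 0.294%). Summary lines (18.5% to 20.6% of listed counts) were left out.

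Genes with at least 1 CPM in 3 libraries were tested with the quasi-likelihood test of edgeR 4.0.16 (R 4.3.3, TMM, Benjamini-Hochberg, FDR 0.05) over the whole table, without a block, and the test was tried on simulated data. Ratios were compared with scipy 1.17.1, and DESeq2 1.42.0 and limma-voom (limma 3.58.1) were alternatives. Distances were taken on log2 CPM with 0.5 as prior count. All 6 genes are named, with the called genes and others of the 7 related lists and, for each tested gene, the 3 closest profiles. The genes, lists and markers were chosen with earlier results of these data known, so list counts are no independent support. All 14 marker lists are described. Coordinates are from GENCODE vM21 on GRCm38, which is not the release counted on, and promoters are from RefSeq. At these depths 24.5 to 33.7 counts make 1 CPM. Protein values were not used here.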

Additional observations from a re-analysis of the deposited data

How the results depend on the processing

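The calls of 3 genes higher in the cochlea and 1 in the vestibule, and the direction of all 5 log2 fold changes, held under other scalings, tests and filters and without each library in turn, with these exceptions. At an FDR of 0.01 the vestibular count was 0, because Otog (log2 fold change 1.04, adjusted p = 0.0144; 1.0e-04 to 0.046 over 16 alternatives) missed it. Otoa passed under DESeq2 (-0.49), the likelihood ratio test (-0.47) and an FDR of 0.1 with a 1.3-fold change (-0.47); the cause was not tested. Leaving out 1 library gave Tecta -4.36 to -4.12, Tectb -2.95 to -2.63, Otog 0.81 to 1.24, Otogl -1.75 to -1.45 and Otoa -0.61 to -0.32. The log2 ratios moved within -1.59 to -1.15 (Tecta to Tectb), 2.48 to 2.7 (Otog to Otogl) and -5.48 to -5.11 (Tecta to Otog).

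With library sizes alone the median of all genes was 0.13, and 1251 genes were called higher in the cochlea and 2754 in the vestibule, beside 1711 and 2325 in the test as reported; Otog was then 1.16 and Otoa -0.35. Over all genes, leaving out 1 library gave 925 (without vestibule replicate 2) to 1863 calls (without cochlea replicate 3) in the cochlea and 1342 to 2694 in the vestibule, by the same libraries. The same replicate numbers in both tissues gave no sign of pairing: deviations of same-numbered libraries correlated by -0.18, -0.26 and -0.47, and none correlated best with its own number. Because the deviations are taken from the mean of each tissue's own 3 libraries, these correlations are linked. They cannot settle whether libraries were paired. With the replicate block the member calls stayed at 3 and 1, the log2 fold change of Otog was 1.08 (adjusted p = 0.046) and that of Otoa -0.46 (adjusted p = 0.234), and calls over all genes were 1009 and 1609.

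Pkhd1l1, Umodl1 and Msln were not tested when 1 library of their higher tissue was left out, since only 2 libraries were then at 1 CPM, and Mslnl lost its call without cochlea replicate 2 and without vestibule replicates 1 and 2. Without cochlea replicate 1 Col11a1 was called higher in the cochlea (-0.83), and Sspo was called higher in the vestibule without vestibule replicate 3 (2.03). The 3 libraries per tissue limit the tests, and the level of Ceacam16 is limited by depth.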
